A study of Homo sapiens with 4 samples.

Results

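The MYC, MAX and MXD network was followed across 4 poly(A)-selected RNA libraries of ARP1 (a human cell line established from multiple myeloma) through 10 genes chosen by name among the 58825 of the deposited gene table: MYC, MAX, MXD1, MXD3, MXD4, MXI1, MNT, MLX, MLXIP and MGA. Libraries 1 and 2 of one group came from ARP1 cells overexpressing RFWD2 (current symbol COP1, an E3 ubiquitin ligase) and libraries 1 and 2 of the other from wild type ARP1 cells. How the overexpression was achieved, whether it came from 1 clone and whether the repeats were separate cultures is not stated in the sources used here, so the spread between libraries may in part be technical. The network was singled out because MYC differed between libraries of the same genotype. The values of MYC are therefore given as a description, library by library, with no test.

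MYC is a transcription factor that binds DNA as a pair with MAX, mainly at the E-box CACGTG, and raises the transcription of genes for growth, ribosome production and metabolism. The MXD proteins (MXD1, MXD3, MXD4 and MXI1) and MNT compete for MAX and recruit corepressors to the same sites, and MGA pairs with MAX in a Polycomb-type repressor complex. MLX forms a parallel branch with MLXIP (MondoA), which responds to glucose. In myeloma MYC is a frequent target of chromosome rearrangements that bring it under strong enhancers.

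Because the pairs with MAX read this E-box, promoters of the network genes were searched for CACGTG, a motif that reads the same on both strands. The search took the 250 bases before each gene start in RefSeq (GRCh38.p14). Windows were matched for 9 members, MYC not among them, and 3 of the 9 (33.3%) held the motif in at least 1 window, against 7.73% of 27305 genes. These 3 promoters are shown, cut where the outermost GENCODE 29 transcript begins, with the E-box in capitals. The MXD4 stretch is chr4:2262295-2262359 on the minus strand, the MNT stretch chr17:2401119-2401310 on the minus strand and the MLX stretch chr17:42566850-42567067 on the plus strand.
MXD4: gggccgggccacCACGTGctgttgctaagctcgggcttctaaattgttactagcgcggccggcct
MNT: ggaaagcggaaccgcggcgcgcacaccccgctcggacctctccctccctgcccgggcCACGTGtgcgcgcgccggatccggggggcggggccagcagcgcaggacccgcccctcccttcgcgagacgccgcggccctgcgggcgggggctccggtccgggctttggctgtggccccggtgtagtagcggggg
MLX: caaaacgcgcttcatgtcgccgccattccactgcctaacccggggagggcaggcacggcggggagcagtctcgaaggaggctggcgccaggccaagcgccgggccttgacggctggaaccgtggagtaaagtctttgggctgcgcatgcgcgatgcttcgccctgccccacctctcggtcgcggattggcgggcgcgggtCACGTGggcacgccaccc
The motif began 238 bases before the RefSeq start of MXD4, 193 before that of MNT and 50 before that of MLX. A match describes the letters of this window and says nothing of binding in these cells.

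The 4 libraries held 62143098 to 70713792 estimated counts each. RFWD2, the overexpressed gene, was at 13.5 and 13.9 FPKM (fragments per kilobase of transcript, scaled to how many fragments were mapped) in the overexpression libraries and at 5.99 and 8.93 FPKM in the wild type libraries, without overlap. All 10 plasma cell markers reached 1 FPKM in every library, with SDC1 between 101 and 198 FPKM. The 4 T cell markers summed to at most 0.236 FPKM in a library and the 4 B cell markers to at most 1.07 FPKM. The highest sums were 1.28 FPKM for 4 myeloid and 1.29 FPKM for 3 erythroid markers, each in an overexpression library. They were 0.028 FPKM for 3 epithelial and 0.74 FPKM for 3 fibroblast markers. Libraries numbered 1 stood apart from those numbered 2 in both genotypes, with mitochondrially encoded genes at 7.46% and 7.68% of counts in the former and 4.96% and 4.27% in the latter.

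MYC RNA was high in 1 library alone. MYC (ENSG00000136997, plus strand of chromosome 8, 127735434 to 127742950) stood at 3.44 and 4.48 FPKM of the overexpression group, at 3.45 FPKM in wild type library 1 and at 90.4 FPKM in wild type library 2. The 3 low values spanned 3.44 to 4.48 FPKM, and wild type library 2 was 20.2-fold above overexpression library 2, 26.2-fold above wild type library 1 and 26.3-fold above overexpression library 1. The estimated counts behind these values were 1185, 1731 and 1343 in the low libraries and 35263 in wild type library 2, and no other gene model in the table overlaps MYC. Ranked among the 11229 genes whose mean reached 1 FPKM, MYC was at percentile 41.6, 41.7 and 41.2 in the low libraries and at percentile 96.2 in wild type library 2. Bulk RNA cannot tell a higher level in every cell from a very high level in some of them.

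Set against genotype, MYC had a mean of 46.9 ± 61.5 FPKM in wild type against 3.96 ± 0.74 FPKM in overexpressing cells (SD, 2 libraries each). The fitted log2 fold change, -3.51, contrasts group means in which wild type library 2 weighs most. Taken by number, genotypes differed in log2 CPM (counts relative to the size of their library) by -0.01 for the libraries numbered 1 and by -4.43 for those numbered 2. Without wild type library 2 the fitted value was 0.02.

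**Figure D1:**
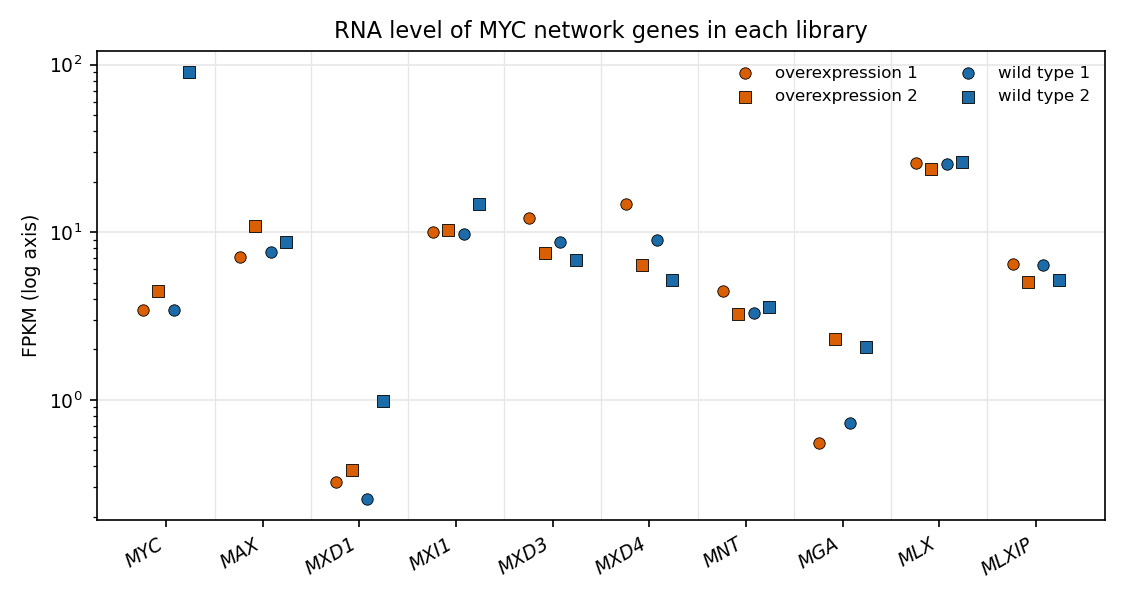
FPKM of the 10 network genes (log axis) in the 2 overexpression libraries (orange) and the 2 wild type libraries (blue), with circles for libraries numbered 1 and squares for those numbered 2. MYC lies between 3.44 and 4.48 FPKM in 3 libraries and at 90.4 FPKM in wild type library 2, while MLX stays between 23.8 and 26.3 FPKM in all.

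Few genes behaved in this way. Only 6 of the 11229 genes (0.0534%) were at least 8-fold higher in wild type library 2 than in every other library, against 7 (0.0623%) for overexpression library 1, 4 (0.0356%) for overexpression library 2 and 8 (0.0712%) for wild type library 1. Of the 25 genes of this kind in the 4 libraries, 9 had a protein-coding transcript in the table, and MYC and CXCL10 were the 2 of those 9 with no other model on the same strand. CXCL10, a chemokine gene, was high in overexpression library 2, at 16.5 FPKM, and between 0.69 and 1.31 FPKM elsewhere. One of the 6, the readthrough model BLOC1S5-TXNDC5, had 1071 FPKM in wild type library 2 and at most 0.0072 FPKM elsewhere, but it overlaps 4 other models on its strand, among which reads may have been divided differently between libraries.

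The genes whose profile over the 4 libraries lay nearest to that of MYC were the small nucleolar RNA gene SNORD22 and the pseudogene ARMCX7P, at a root mean square distance of 0.24 and 0.49 on the log2(FPKM + 1) scale among 6536 candidates. SNORD22 had 0.45 and 1.10 FPKM in the RFWD2 libraries against 0.46 and 21.0 FPKM in the wild type ones, but its model overlaps another gene on its strand. The next nearest was already at a distance of 1.08. It was the chemokine gene CCL5, with 30.1 and 25.9 FPKM in the RFWD2 libraries against 34.0 and 109 FPKM in the wild type ones. DAZAP2 came next at 1.14, and then BCL2L11, which encodes the pro-apoptotic protein BIM, at 1.22, with 5.17 and 5.62 FPKM against 3.80 and 15.0 FPKM. ANXA1, P2RX7, SH3RF3-AS1, SPCS2P4 and HSDL1 made up the rest of the 10 nearest, at distances of 1.23 to 1.26. These distances rest on 4 libraries and describe likeness only.

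The neighbours of MYC on its chromosome arm did not follow it in wild type library 2. Of 13 neighbours, 8 had a mean of at least 1 FPKM, and the highest ratio of wild type library 2 to the next library among these 8 was 1.27, for SQLE, an enzyme of cholesterol synthesis. PVT1, the long noncoding RNA gene next to MYC, had 1.49 and 0.82 FPKM in the RFWD2 libraries against 1.19 and 0.73 FPKM in the wild type ones, so wild type library 2 was its lowest. TRIB1, which encodes an adaptor of COP1, had 53.9 and 66.1 FPKM against 54.6 and 59.9 FPKM. CASC11, POU5F1B, CASC8, TMEM75 and GSDMC were at or under 0.117 FPKM in every library.

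**Figure D2:**
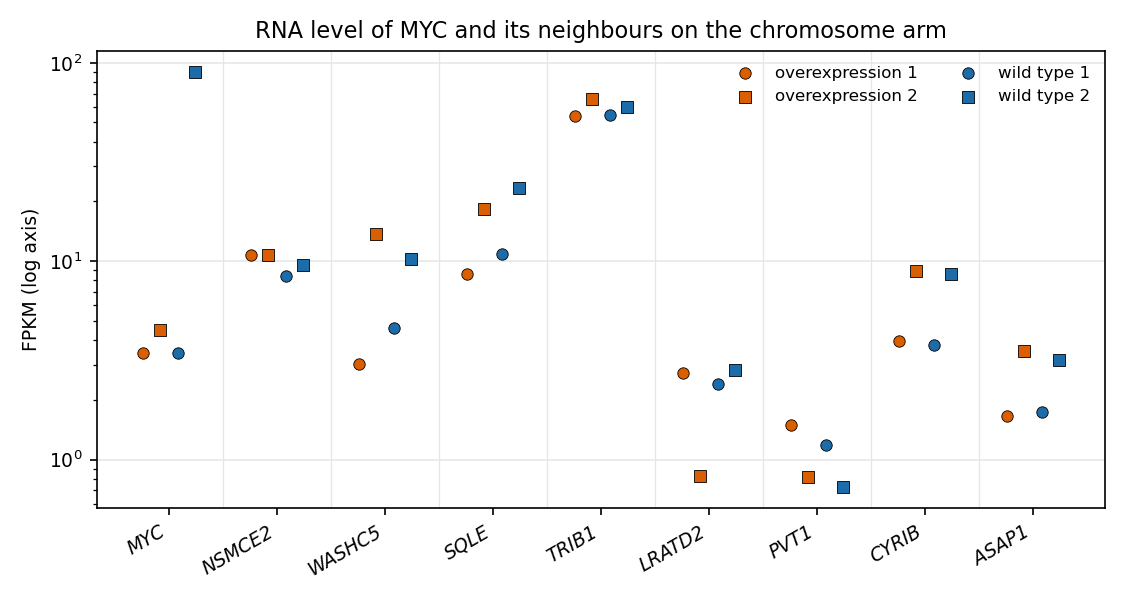
FPKM (log axis) of MYC and the 8 of its 13 listed neighbours with a mean of at least 1 FPKM, in overexpression (orange) and wild type (blue) libraries numbered 1 (circles) and 2 (squares). MYC alone is far higher in wild type library 2, while PVT1 has its lowest value there, 0.73 FPKM.

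The other MYC-type genes were low and did not share this pattern. MYCN, a paralogue best known from neuroblastoma, had 4.53 and 2.16 FPKM in the RFWD2 libraries against 3.56 and 2.50 FPKM in the wild type ones. The ratio of MYC to MYCN in FPKM was 0.76 and 2.08 in RFWD2 libraries 1 and 2. It was 0.97 in wild type library 1 and 36.2 in wild type library 2. MYCL, the paralogue known from small cell lung cancer, had 0.82 and 0.82 FPKM against 0.22 and 0.44 FPKM, without overlap between the groups (log2 fold change 1.29 ± 0.52, SE, edgeR adjusted p = 1.0). MYC made up 39.1% and 60.1% of the summed FPKM of MYC, MYCN and MYCL in overexpression libraries 1 and 2, 47.7% in wild type library 1 and 96.9% in wild type library 2. MLXIPL, which encodes the glucose-responsive factor ChREBP, was listed at 0 in 3 libraries and at 0.0092 FPKM in wild type library 2.

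None of the other 9 network genes separated the genotypes. All 10 members entered the fit over 18873 genes, and of these 9 edgeR's quasi-likelihood test called 0 at a Benjamini-Hochberg adjusted p under 0.05, where it called 0.0% of all genes (346 genes, 1.83%, had an unadjusted p under 0.05). DESeq2 called 0 of the 9 as well, against 0.196% of the genes it fitted. In 0 of 10 members did both overexpression libraries lie above both wild type libraries, against 12.8% of genes tested, and in 0 of 10 did both lie below, against 7.73%. The test counts the difference between library numbers as spread, so the absence of calls does not show equal levels. Within the numbers, 7 of the 10 members differed between genotypes in opposite directions, as did 46.0% of the genes whose mean reached 1 FPKM.

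MAX, the shared partner (minus strand of chromosome 14, 65006174 to 65102695), had 7.13 and 10.9 FPKM in the RFWD2 libraries against 7.63 and 8.77 FPKM in the wild type ones, with overlapping groups. Its log2 fold change was 0.07 ± 0.34 (SE, edgeR adjusted p = 1.0). Both libraries numbered 2 lay above both numbered 1 in FPKM but not in log2 CPM. Since MAX varied little, the ratio of MYC to MAX in FPKM was 0.48 and 0.41 with overexpression, 0.45 in wild type library 1 and 10.3 in wild type library 2. FNTB and CHURC1-FNTB overlap MAX on the opposite strand at no more than 2.94 FPKM, and the sources used here do not say whether counting used strand.

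The mix of the MXD repressors differed from library to library. MXD4 (minus strand of chromosome 4, 2247432 to 2262109) had 14.8 and 6.40 FPKM in the RFWD2 libraries against 9.04 and 5.19 FPKM in the wild type ones, so both libraries numbered 1 were higher and the groups overlapped. MXD3 (minus strand of chromosome 5, 177301461 to 177311895) had 12.2 and 7.47 FPKM against 8.70 and 6.82 FPKM, with the same order of the numbers. Their log2 fold changes were 0.57 ± 0.63 for MXD4 and 0.33 ± 0.48 for MXD3 (SE, edgeR adjusted p = 1.0 for each). MXD3 shares part of its strand with RAB24, which had 22.9 and 14.5 FPKM against 18.6 and 16.04 FPKM. On the opposite strand MXD3 overlaps PRELID1, which had 139 and 99.8 FPKM against 86.3 and 98.1 FPKM, far above MXD3. Whether counting used strand is not stated, so reads may be shared there too.

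MXI1, also known as MXD2 (plus strand of chromosome 10, 110207605 to 110287365), had 10.0 and 10.3 FPKM in the RFWD2 libraries against 9.82 and 14.7 FPKM in the wild type ones. It was highest in wild type library 2, and its fold change (log2) was -0.29 ± 0.35 (SE, adjusted p = 1.0 with edgeR), with 0.03 between the libraries numbered 1 and -0.61 between those numbered 2. MXD1 (plus strand of chromosome 2, 69897688 to 69942942), the founding MXD gene, was the lowest member, with 0.33 and 0.38 FPKM against 0.26 and 0.98 FPKM, and the one member with a mean under 1 FPKM. It too was highest in wild type library 2, by 1.66 in log2 CPM over wild type library 1. SNRNP27, which overlaps MXD1 on its strand, had 7.48 and 8.90 FPKM against 5.50 and 12.8 FPKM and was also highest there, so reads may be shared. The 4 MXD genes summed to 37.4 and 24.5 FPKM in the RFWD2 libraries against 27.8 and 27.7 FPKM in the wild type ones. MXI1 made up 26.8% and 41.9% of that sum in RFWD2 libraries 1 and 2 against 35.3% and 53.1% in the wild type ones, while MXD4 went from 39.7% in overexpression library 1 to 18.7% in wild type library 2. The ratio of MYC to this sum was between 0.092 and 0.18 in the 3 low libraries and 3.26 in wild type library 2.

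**Figure D3:**
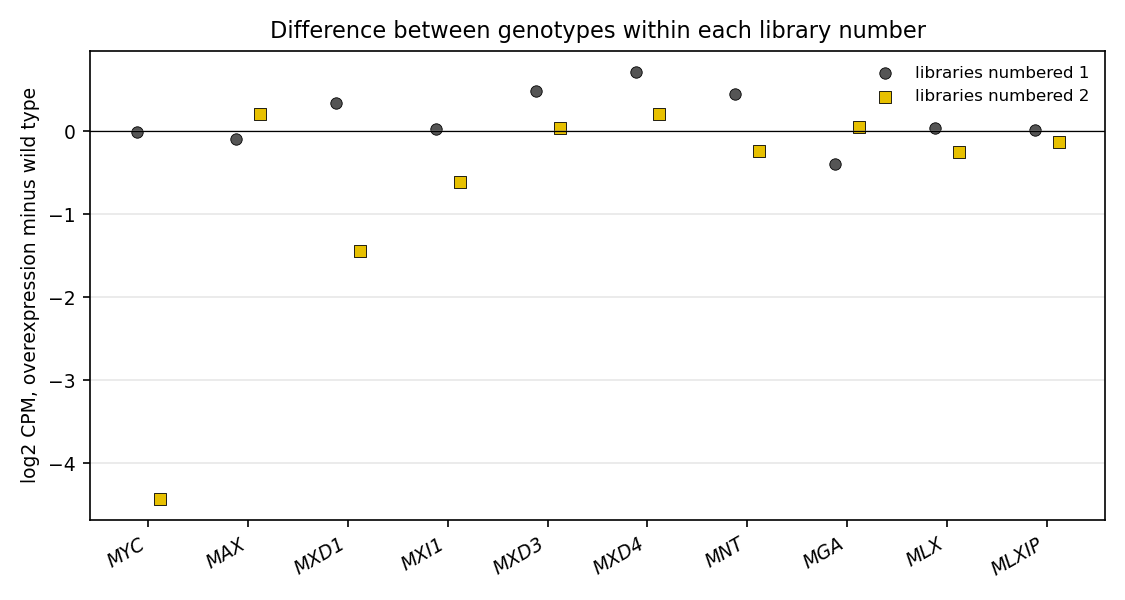
Difference in log2 CPM between the overexpression and the wild type library numbered 1 (grey circles) and between those numbered 2 (yellow squares) for each network gene. MYC is at -0.01 and -4.43 and MXD1 at 0.33 and -1.44, while the other 8 genes lie between -0.61 and 0.71.

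MNT, a broadly expressed MAX partner and repressor (minus strand of chromosome 17, 2384073 to 2401104), had 4.47 and 3.23 FPKM in the RFWD2 libraries against 3.28 and 3.56 FPKM in the wild type ones, with overexpression library 1 the highest and the groups overlapping. MGA (plus strand of chromosome 15, 41621224 to 41773081) had 0.55 and 2.30 FPKM against 0.72 and 2.08 FPKM, so it followed the library number and not the genotype. Both libraries numbered 2 lay above both numbered 1, by 1.72 in log2 CPM with overexpression and 1.28 in wild type. In FPKM, 5 of the 10 members (MYC, MAX, MXD1, MXI1 and MGA) had both libraries numbered 2 above both numbered 1 and 3 (MXD3, MXD4 and MLXIP) had both below, against 44.4% and 20.5% of genes tested. In log2 CPM the split turned, with 2 members above (MYC and MGA) and 5 below (MXD3, MXD4, MNT, MLX and MLXIP), against 32.9% and 30.5%. The scales differ by a shift of all genes, whose median difference from library 1 to library 2 on the log2(FPKM + 1) scale was 0.21 for RFWD2 cells and 0.19 for wild type cells, and in log2 CPM -0.073 and -0.0018. For genotype, 0 of 10 members separated the groups in either direction on both scales, against 10.7% of genes tested above and 10.7% below in log2 CPM. Genes with long transcripts leaned the same way as MGA. The 1586 genes with a longest GENCODE 29 transcript of at least 6000 bases had a median difference between libraries 2 and 1 of 0.57 in log2 CPM with overexpression and 0.33 in wild type, against -0.17 and -0.07 for 9628 shorter genes. The longest transcript of MGA has 14439 bases, and the part of length in its difference was not tested. MLXIP, with 8427 bases, went the other way.

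MLX (plus strand of chromosome 17, 42567068 to 42573239) was the steadiest member in FPKM. It had 26.0 and 23.8 FPKM in the overexpression and 25.4 and 26.3 FPKM in the wild type libraries. In log2 CPM it was less steady than MAX, with -0.47 from overexpression library 1 to 2 against 0.27 for MAX. In FPKM, MLX was the highest of the 10 genes in each library except wild type library 2, where MYC exceeded it. MLXIP, its partner (plus strand of chromosome 12, 122078756 to 122147344), had 6.45 and 5.07 FPKM against 6.37 and 5.17 FPKM, so that the libraries sorted by number. The log2 fold changes were -0.08 ± 0.34 for MLX and -0.04 ± 0.41 for MLXIP (SE, edgeR adjusted p = 1.0 for each). Of 5 known MondoA and MLX targets, 4 had a mean of at least 1 FPKM and 0 were called by edgeR. Both overexpression libraries lay below both controls for 2 of the 4 and above them for 1, against 6.44% and 9.55% of all 11229 genes with that mean. TXNIP, which restrains glucose uptake, had 29.7 and 83.8 FPKM in the RFWD2 libraries against 104 and 88.4 FPKM in the wild type ones. The hexokinase gene HK2 had 2.67 and 4.02 FPKM against 5.06 and 8.62 FPKM, also below the controls in both libraries. PFKFB3, a regulator of glycolysis, had 7.11 and 10.5 FPKM against 4.55 and 5.24 FPKM, above them in both. The arrestin-domain gene ARRDC3 overlapped between the groups, with 2.82 and 7.22 FPKM against 2.70 and 9.16 FPKM.

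The median FPKM of genes known to be activated by MYC was lowest in overexpression library 1 and highest in wild type library 2. Its steps between libraries were unlike in size to those of MYC. This median was 19.8 and 27.1 FPKM in the RFWD2 libraries against 23.85 and 29.5 FPKM in the wild type ones. Over all 11229 genes it was 4.63 and 5.78 FPKM against 4.65 and 5.53 FPKM. The list of 50 activated genes, all with a mean of at least 1 FPKM, had a median log2 difference of -0.23 between genotypes on the log2(FPKM + 1) scale. Of these genes 43 (86.0%) were lower with overexpression, against a median of 0.01 and 47.6% over all 11229 genes. Between the libraries numbered 1, where MYC stood at 3.44 and 3.45 FPKM, the median was -0.30 and 40 targets were higher in wild type. Between those numbered 2, where MYC was 20.2-fold higher in wild type, the median was -0.16 and 38 targets were higher in wild type. From library 1 to library 2 the median was 0.54 with overexpression, where MYC went from 3.44 to 4.48 FPKM, and 0.57 in wild type, where it went from 3.45 to 90.4 FPKM. The same differences over all genes were 0.21 and 0.19. These comparisons share libraries, and no difference between them was tested.

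In FPKM, both overexpression libraries lay below both controls for 8 of the 50 targets, against 6.44% of all genes with that mean. Both lay above the controls for 1, against 9.55%. In log2 CPM the groups overlapped for this 1 target. No target was called by edgeR. LDHA, which makes lactate dehydrogenase A, had 164 and 200 FPKM in the RFWD2 libraries against 267 and 375 FPKM in the wild type ones. CAD, an enzyme of pyrimidine synthesis, had 12.1 and 13.9 FPKM against 17.8 and 18.0 FPKM, about as high in wild type library 1 as in library 2. SRM had 74.1 and 79.9 FPKM against 103 and 125 FPKM. ODC1 had 184 and 353 FPKM against 294 and 532 FPKM. Both SRM and ODC1 were highest in wild type library 2, and ODC1 also sorted by number. Nucleolin (NCL) and nucleophosmin (NPM1), chosen for mention after their values were seen, likewise sorted by number and were highest in wild type library 2. NCL had 23.3 and 84.8 FPKM against 39.8 and 89.6 FPKM, and NPM1 174 and 286 FPKM against 201 and 320 FPKM. Both libraries numbered 2 lay above both numbered 1 for 33 of the 50 targets, against 5392 of all 11229 genes. For 5 of the 50 both lay below, against 2800 of all genes. The highest ratio of wild type library 2 to the next library among the 50 was 1.91, for AIMP2. The median of the list became 0.06 when overexpression library 1 was left out and 0.07 when wild type library 2 was.

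**Figure D4:**
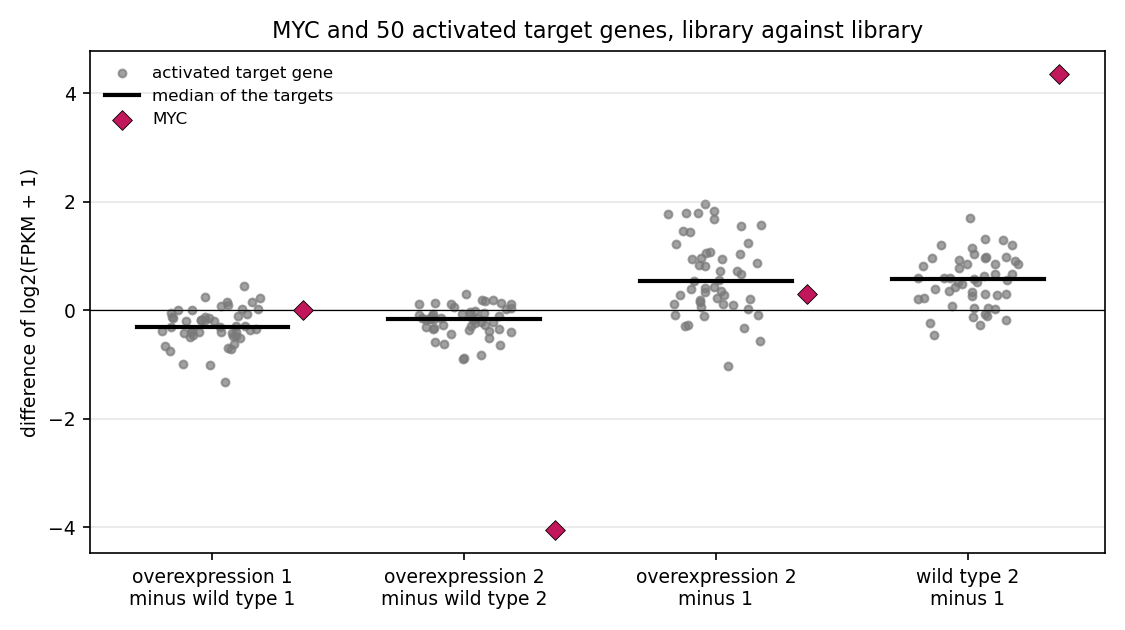
Difference of log2(FPKM + 1) between pairs of libraries for 50 genes known as MYC-activated targets (grey points, horizontal line at their median) and for MYC (red diamonds). MYC is at 0.30 from overexpression library 1 to 2 and at 4.36 from wild type library 1 to 2, while the targets' medians are 0.54 and 0.57.

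Of 12 genes known to be repressed by MYC, 10 had a mean of at least 1 FPKM. Of these, 8 had higher mean log2 levels with overexpression and 2 lower, with a median of 0.22 and 0 called by edgeR. Leaving out 1 library moved this median to as low as 0.096 (overexpression library 1 left out) and as high as 0.58 (wild type library 1 left out). For 3 of the 10 (TP53INP1, GADD45A and NDRG2) both overexpression libraries lay above both controls in FPKM, and for 0 below. This compares with 9.55% of all genes with that mean above. In log2 CPM the groups overlapped for NDRG2. There overexpression library 1 was 0.07 above wild type library 1, and overexpression library 2 was at -0.23 from overexpression library 1. TP53INP1, a stress-induced gene of autophagy and cell death, had 1.58 and 3.97 FPKM against 0.55 and 0.99 FPKM. The growth arrest gene GADD45A had 12.3 and 6.82 FPKM against 5.01 and 5.70 FPKM. GADD45B, its paralogue, overlapped between the groups, with 16.7 and 11.2 FPKM against 11.5 and 5.45 FPKM. The cyclin-dependent kinase inhibitor gene CDKN2B also overlapped and was lower with overexpression in both numbers, with 13.6 and 20.1 FPKM against 14.6 and 24.2 FPKM. The median of the list was 0.31 between the libraries numbered 1 and 0.21 between those numbered 2. From library 1 to library 2 it was -0.57 with overexpression, where MYC went from 3.44 to 4.48 FPKM. In wild type, where MYC went from 3.45 to 90.4 FPKM, it was -0.01. Over all genes these differences from library 1 to library 2 were 0.21 and 0.19. No difference between these medians was tested.

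Cofactors of the network and genes that act on MYC gave no call by edgeR in any of 4 lists. The 19 cofactors had a median of -0.14, the 9 partners of MGA in its Polycomb-type complex -0.09, the 19 measured genes of 20 for MYC protein turnover 0.02 and the 10 regulators of MYC transcription -0.08. In FPKM, both overexpression libraries lay below both controls for 1 of the 19 cofactors (KAT2A) and 1 of the 9 partners of MGA (YAF2). This compares with 6.44% of genes of a mean of at least 1 FPKM. Both lay above the controls for 3 of the 19 turnover genes (PIM2, TRIM32 and GSK3A), against 9.55%. None of the 10 regulators separated the groups in FPKM. In log2 CPM the groups overlapped for KAT2A, with overexpression library 1 at -0.23 and wild type library 2 at -0.27 from wild type library 1. They overlapped for GSK3A too, with overexpression library 2 at -0.01 from wild type library 2. The acetyltransferase gene KAT2A had 18.5 and 17.8 FPKM in the RFWD2 libraries against 21.7 and 21.3 FPKM in the wild type ones. YAF2, which encodes a Polycomb complex subunit, had 0.93 and 0.98 FPKM against 1.11 and 1.71 FPKM. PIM2, a kinase gene strongly expressed in myeloma, had 778 and 624 FPKM against 392 and 415 FPKM, without overlap (log2 fold change 0.78 ± 0.35, SE, edgeR adjusted p = 1.0). TRIM32, a ubiquitin ligase known to act on MYC, had 2.89 and 4.83 FPKM against 1.53 and 2.04 FPKM, also without overlap. FBXO28, another turnover gene, overlapped between the groups, with 1.80 and 2.59 FPKM against 1.89 and 5.14 FPKM. Its ratio of wild type library 2 to the next library, 1.985, was the highest among the 19 turnover genes. IRF4, a plasma cell factor that acts on the MYC promoter in myeloma, had 124 and 256 FPKM against 117 and 348 FPKM, so it was highest in wild type library 2 but high in overexpression library 2 as well. IKZF1, another lymphoid factor upstream of MYC, had 5.59 and 10.5 FPKM against 7.28 and 10.9 FPKM. Medians of these 4 lists changed sign in at least 1 comparison that left out a library.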

How the data were processed

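RNA of 2 libraries of ARP1 cells overexpressing RFWD2 and 2 of wild type ARP1 cells was poly(A)-selected and sequenced as paired ends, per the labels' protocols. Groups come from the genotype and numbers from the titles. The authors deposited estimated counts (whole numbers whose low values pile up on multiples of 4, so they were treated as estimates) and FPKM per gene, per the file headers. The FPKM placeholder 0.0001 was set to 0. Per the submitters' processing notes the tools were Bowtie 0.12.2, StringTie 1.3.0 and HISAT2 2.0 and the build a mouse one, mm8, with no role for any, yet all 58825 identifiers are human Ensembl ones. Of these, 99.5% occur in GENCODE 29 (GRCh38), 95.1% of those at the same chromosome and strand with at least 1 shared end. The counting tool and its use of strand are not stated in the sources used here.

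Genes were tested in edgeR (4.0.16, under R 4.3.3) by its two-sided quasi-likelihood test on estimated counts with TMM factors and filterByExpr, adjusted over 18873 genes by Benjamini-Hochberg. DESeq2 1.42.0 and limma 3.58.1 on log2(FPKM + 1) were alternatives. The fits were tested on simulated data that held no difference between library numbers, so that test does not cover this feature of the libraries. Differences between single libraries are in log2 CPM with a prior count of 2 unless stated. The rule for named genes took the 10 members, models that overlap them, up to 4 genes of each list by smallest unadjusted p, and the 10 genes nearest to MYC by profile among those that reach 5 FPKM in a library and have no clone-style symbol. MLXIPL, TRIB1, the neighbours of MYC under 1 FPKM other than CASC11, NDRG2, GSK3A, AIMP2, CXCL10 and BLOC1S5-TXNDC5 were named after their values were seen. One gene that the rule takes is not reported here. Lists were written by hand from general knowledge, and members, lists and tests were chosen with earlier results of these data known. Counts of members without overlap in log2 CPM were added after seeing the data. For the lists such counts were made in FPKM only. List medians carry no test.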

Additional observations from a re-analysis of the deposited data

How the results depend on the processing

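Depth was similar in the 4 libraries, and with 2 per group edgeR counts the difference between library numbers as spread. It called 0 genes with DESeq2's size factors, with counts divided by 4 and with the replicate number as a block, and limma on log2(FPKM + 1) called 0. It called 8 genes without a filter, DESeq2 called 55, and fits without 1 library called 73 to 183. The labels do not tie equal numbers to a shared culture. Deviations of equally numbered libraries had Pearson's r = 0.66 across 11229 genes, and under the replicate block the log2 fold change of MYC was -2.23.

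For the 9 members other than MYC, 0 of 98 alternative fits made a call. Direction was kept in 87, and the 11 that reversed all left out a library. Without 1 library the log2 fold change ran from -0.067 to 0.19 for MAX, -1.39 to 0.28 for MXD1, -0.29 to 0.76 for MXD3, -0.41 to 1.18 for MXD4, -0.30 to 0.52 for MNT, -0.34 to 0.14 for MLX, -0.42 to 0.27 for MLXIP and -1.16 to 0.71 for MGA. MXI1 kept its sign, at -0.45 to -0.11. MYC was at -4.45 to 0.02 without 1 library and at -2.03 with limma. The median of activated targets ran from -0.54 to 0.073 without 1 library and from -0.32 to -0.23 under the other settings. Such fits set unequal mixtures of library numbers against each other.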

Other observations

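The E-box CACGTG stood in the 250 bases before the gene start of 13 of the 38 activated targets matched to RefSeq windows (34.2%), of 1 of 8 repressed targets and of 3 of 5 MondoA and MLX targets, beside 7.73% of all genes with a window. The lists were written with textbook targets in mind, some of which are known for such motifs, so these shares describe the lists.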
